A study of Mus musculus with 4 samples.

Results

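The 10 genes described here handle ATP, NAD and adenosine outside T cells, or take up the adenosine signal and clear it: *Nt5e*, *Entpd1*, *Adora2a*, *P2rx7*, *P2rx4*, *Ada*, *Adk*, *Dpp4*, *Art2b* and *Pnp*. They were chosen by name and matched on the gene symbol, and make up 10 of the 55367 gene symbols of the deposited count tables. The data are RNA-seq counts of sorted splenic CD4+ T cells of C57BL/6 mice, from 2 libraries labelled WT and 2 labelled *Satb1* conditional knockout (cKO). The SATB1 protein folds chromatin and controls transcription in T cells. The series' design names *Satb1* F/F mice with ThPOK-cre or E8I-cre, and the study used *Thpok-cre*, which acts from the commitment of thymocytes to the CD4 lineage, to delete *Satb1* from CD4+ T cells, regulatory T (Treg) cells among them. The sample labels name no Cre line, do not say whether the WT mice carried a floxed allele or a Cre, and give neither age nor sex. The study's methods describe adult mice of mixed sexes for the study as a whole, and no treatment was recorded for either genotype. The comparison asks how the levels of these transcripts differ between the genotypes.

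ATP and NAD leave damaged or activated cells and act as danger signals. The ectoenzyme CD39 takes phosphates from ATP to leave AMP, and CD73 turns AMP into adenosine, which binds the A2A receptor on T cells and raises cyclic AMP, a brake on their activation. Treg cells are known for carrying both ectoenzymes. ATP itself opens the P2X channels, ART2 enzymes sensitise P2X7 by attaching ADP-ribose to it from NAD, and adenosine is removed by deamination, phosphorylation or, after deamination, phosphorolysis.

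The libraries held 4495902 to 6555699 reads counted on genes, and the 10 genes took 2570 to 3904 of these. Counts of *Satb1* were 5677 and 4390 in WT and 4958 and 3986 in cKO, a log2 fold change of -0.05 ± 0.12 (SE; edgeR quasi-likelihood test, adjusted p = 0.877). These counts sum over the whole gene and do not show whether its floxed part was deleted, so that cKO denotes the label of a library throughout. *Xist*, expressed from the inactive X chromosome, stood at 829.6 and 944.8 CPM (reads of a gene per 1e+06 counted reads) in WT but at 1.71 and 1.27 CPM in cKO, and counts of the Y-linked *Ddx3y* were 0 in each WT library against 525 and 597 in cKO. Sex and genotype label therefore cannot be told apart in any comparison below. In a bulk sample, fewer cells that express a gene and less RNA per cell cannot be told apart either.

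All 10 genes passed the filter on low counts. *Nt5e* and *Adk* rose in the cKO libraries, and no member was called lower. The edgeR quasi-likelihood test called 2 of 10 members higher, against a background of 291 of 12403 tested genes (2.35%). It called 0 of 10 lower, against 242 genes (1.95%), and calls in either direction came to 533 genes (4.30%). The list was drawn up with earlier results of these data known, so these shares are descriptive only. An unadjusted p under 0.05 was given to 4 members, *Nt5e*, *Adk*, *Adora2a* and *Dpp4*, and to 2370 of the 12403 tested genes. The median log2 fold change of the members was 0.31, with 7 positive and 3 negative values, beside a median of -0.0015 over all tested genes. The cKO libraries did not overlap the WT libraries for 5 of the 10 members, and the same held for 50.3% of all tested genes.

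**Figure D1:**
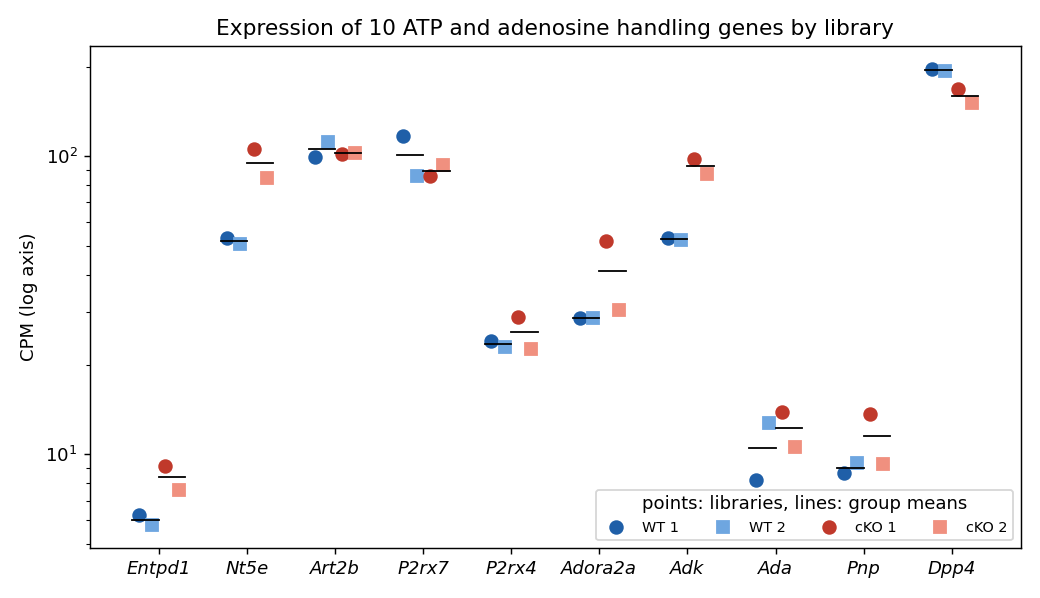
Expression of the 10 genes in each library as CPM on a log axis, with 1 point per library and lines at the mean of each genotype. For *Nt5e* and *Adk* both cKO points stand well above both WT points, whereas for *Adora2a* only cKO 1 stands apart, and for *Dpp4* both cKO points lie below the WT points.

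*Nt5e* encodes CD73, the enzyme that makes extracellular adenosine from AMP. It had 53.0 and 50.6 CPM in WT and 105.7 and 84.2 CPM in cKO. The cKO libraries were both above the WT libraries, which lay close together. The log2 fold change was 0.87 ± 0.14 (SE), or 1.83-fold (95% interval 1.48 to 2.27), and passed the edgeR test (adjusted p = 0.0105). Among the 291 genes called higher, it stood at place 164 by fold change and at place 90 by p-value.

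*Adk* encodes adenosine kinase, which phosphorylates adenosine to AMP inside the cell. Its level was 53.2 and 52.2 CPM in WT and 97.9 and 87.0 CPM in cKO. The groups were again separate, and the spread within each was small beside the distance between them. *Adk* rose 1.75-fold (95% interval 1.46 to 2.11), with a log2 fold change of 0.81 ± 0.12 (SE; edgeR adjusted p = 0.00731). It stood at place 187 by fold change and at place 68 by p-value among the 291 genes called higher.

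The promoter windows of the risen members are shown because both genes rose together. They are RefSeq windows of 300 bases on GRCm38.p6, from 250 bases before to 50 after a start, read 5′ to 3′ on the strand of the gene. *Nt5e* has a single window in that table, at chr9:88327359-88327658 on the plus strand. *Adk* has 2 windows, at chr14:21052324-21052623 and chr14:21075902-21076201, both on the plus strand. Capitals mark the GC box GGGCGG, the cyclic AMP response half-site TGACG and the TATA box TATAAA, each searched on both strands, with overlapping matches counted.
Nt5e: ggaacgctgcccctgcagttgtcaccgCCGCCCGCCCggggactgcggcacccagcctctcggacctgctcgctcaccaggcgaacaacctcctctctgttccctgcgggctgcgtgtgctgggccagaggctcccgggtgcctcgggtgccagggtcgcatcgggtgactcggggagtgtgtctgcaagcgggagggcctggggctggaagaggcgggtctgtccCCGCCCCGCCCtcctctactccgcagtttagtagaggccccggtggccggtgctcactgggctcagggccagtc
Adk window 1: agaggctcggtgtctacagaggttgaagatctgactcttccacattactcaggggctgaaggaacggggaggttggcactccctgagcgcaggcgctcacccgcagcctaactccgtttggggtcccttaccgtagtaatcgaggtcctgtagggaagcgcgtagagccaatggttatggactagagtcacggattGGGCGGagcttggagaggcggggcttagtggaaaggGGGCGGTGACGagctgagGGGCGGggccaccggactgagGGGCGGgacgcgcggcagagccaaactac
Adk window 2: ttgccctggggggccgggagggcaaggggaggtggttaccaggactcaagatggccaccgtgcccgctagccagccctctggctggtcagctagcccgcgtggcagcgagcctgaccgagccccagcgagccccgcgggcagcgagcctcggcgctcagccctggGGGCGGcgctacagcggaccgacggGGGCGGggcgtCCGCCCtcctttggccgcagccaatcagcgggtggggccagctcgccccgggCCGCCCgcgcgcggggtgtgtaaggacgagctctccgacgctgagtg

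The *Nt5e* window held 4 GC boxes and 23 CpG dinucleotides, with a GC content of 71%. Each *Adk* window held 4 GC boxes, with 21 CpG in window 1 and 33 in window 2, and window 1 also held 1 TGACG, a half-site found in 20.8% of all windows and, among the members that were not called, in those of *Entpd1*, *Art2b* and *P2rx4*. At least 1 GC box was found in 35.7% of the 32851 windows in the table, whose median was 7 CpG. The other members with a GC box were *P2rx7*, *P2rx4*, *Ada* and *Pnp*, none of which passed the test. The table held a window for 9 of the 10 members, with none for *Adora2a*. The full cyclic AMP response element TGACGTCA (1.79% of all windows) and the letters AATATATTT, a core that SATB1 binds (0.371%), were found in no member's window. Such matches describe letters in these windows only.

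The other ectoenzyme of the pathway, *Entpd1*, encodes CD39. It was the scarcest member per length of transcript, with 41 and 26 counts in WT and 48 and 36 in cKO. As CPM this was 6.24 and 5.80 against 9.11 and 7.62, so that both cKO libraries lay above both WT libraries. The log2 fold change of 0.47 ± 0.27 (SE) did not pass the edgeR test (adjusted p = 0.402), and the 95% interval of the fold, 0.90 to 2.13, lies on both sides of 1. The ratio of *Nt5e* to *Entpd1* counts was 8.49 and 8.73 in WT and 11.6 and 11.1 in cKO. These groups did not overlap, and no test was run on the ratios.

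*Adora2a* encodes the A2A adenosine receptor. It had 28.6 and 28.8 CPM in the WT libraries, 52.0 CPM in cKO 1 and 30.5 CPM in cKO 2. The high value thus came from cKO 1 alone, and cKO 2 was close to WT. Counting error did not span this gap, since the 95% Poisson interval was 46.0 to 58.5 CPM in cKO 1 and 25.7 to 35.9 CPM in cKO 2. The difference, 0.53 ± 0.23 (SE) on the log2 scale, did not pass the edgeR test (adjusted p = 0.254). It was 0.08 (adjusted p = 0.799) without cKO 1 and 0.86 (adjusted p = 4.74e-05) without cKO 2.

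The other adenosine receptor genes were at or near 0 counts. *Adora1* and *Adora2b* had 0 counts in every library, and *Adora3* had 0 to 3. All 3 were at or under the floor of 3 counts, which corresponds to 0.457 to 0.669 CPM in these libraries and limits what counting can show, so a lower level was not detectable at this depth.

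The ATP receptors that T cells are known for were measured at clear levels and did not pass the test. *P2rx7* encodes the ATP-gated channel whose opening can kill T cells. Its level was 116.5 and 85.7 CPM in WT and 85.6 and 93.3 CPM in cKO. The groups overlapped, and WT 1 was the only library above the other 3. The 95% Poisson intervals of the WT libraries, 108.4 to 125.1 and 77.3 to 94.7 CPM, did not overlap. At -0.18 ± 0.15 (SE), the log2 fold change did not pass the edgeR test (adjusted p = 0.563), and the interval of the fold was 0.70 to 1.11.

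*P2rx4*, the neighbouring gene on chromosome 5, encodes a channel that opens at lower ATP concentrations. It had 24.1 and 23.0 CPM in WT and 28.8 and 22.6 CPM in cKO, with overlapping groups. Its log2 fold change was 0.13 ± 0.17 (SE; edgeR adjusted p = 0.737), with an interval of the fold from 0.84 to 1.43. The count ratio of *P2rx7* to *P2rx4* was 4.84 and 3.73 in WT and 2.97 and 4.12 in cKO, again with overlap. The flanking genes *Ift81* and *Camkk2* did not pass the test either, with log2 fold changes of 1.32 (adjusted p = 0.0962) and 0.11 (adjusted p = 0.664). None of the 12 other P2X and P2Y receptor genes listed had enough counts to be tested. At or under the floor in every library were 5 of them, and *P2rx3*, the highest in mean CPM, had 6 to 13 counts.

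*Art2b* encodes the ADP-ribosyltransferase that modifies P2X7. It was the most abundant member per length of transcript and the least different between genotypes. Its level was 99.5 and 111.5 CPM in WT and 102.1 and 102.6 CPM in cKO, and the cKO libraries lay between the WT libraries. The log2 fold change was -0.04 ± 0.11 (SE; edgeR adjusted p = 0.880), and the interval of the fold from 0.82 to 1.15 leaves out any change as large as that of *Nt5e*.

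*Art2b* lies beside a close copy, *Art2a*, annotated as a polymorphic pseudogene in GENCODE M21. The coding sequences are 87.3% identical over 861 aligned bases, and reads of 50 bases that fit both genes are not counted for either. The 60 coding bases in which they differ most are shown to make clear where reads can be told apart, with bases that differ in capitals, and positions on GRCm38, minus strand. They lie at chr7:101580142-101580201 for *Art2b* and at chr7:101554781-101554840 for *Art2a*, coding bases 490 to 549 in both.
Art2b: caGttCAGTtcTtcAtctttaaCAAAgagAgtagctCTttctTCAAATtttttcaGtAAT
Art2a: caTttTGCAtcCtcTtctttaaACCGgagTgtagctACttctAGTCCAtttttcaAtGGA

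Of the 50-base words of *Art2b* transcripts, 5.70% occurred in another gene on the same strand, and 142 of those words were shared with *Art2a*. *Art2a* itself had 20 and 23 counts in WT and 37 and 32 in cKO, and its log2 fold change of 0.79 did not pass the test (adjusted p = 0.257). With the counts of both genes summed, the log2 fold change was -0.0016 (adjusted p = 0.998). *Art2a* adds few counts to this sum, and reads that fit both copies are in neither count.

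The other enzymes that clear adenosine were scarce, and their intervals are wide. *Ada* encodes adenosine deaminase, which turns adenosine into inosine. It had 8.22 and 12.7 CPM in WT and 13.9 and 10.6 CPM in cKO, with overlapping groups and 50 to 73 counts per library. This gave a log2 fold change of 0.26 ± 0.28 (SE; edgeR adjusted p = 0.681), or 1.19-fold with an interval from 0.77 to 1.85.

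The count ratio of *Adk* to *Ada*, which sets the phosphorylating enzyme against the deaminating one, was 6.46 and 4.11 in WT and 7.07 and 8.22 in cKO. The groups did not overlap, but WT 1 and cKO 1 were close. This ratio concerns transcripts and not the activity of either enzyme.

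*Pnp* encodes purine nucleoside phosphorylase, which splits inosine and guanosine. It had 8.68 and 9.37 CPM in WT and 13.7 and 9.31 CPM in cKO. Only cKO 1 was above both WT libraries, and the log2 fold change was 0.36 ± 0.26 (SE; edgeR adjusted p = 0.513), with an interval of the fold from 0.85 to 1.94. Counts of *Pnp* are uncertain because 18.9% of its 50-base words occur in another gene on the same strand, mostly the overlapping model *Gm49342*. Its copy *Pnp2*, with a coding sequence 98.2% identical, had 6 and 2 counts in WT and 0 in both cKO libraries and was too low to be tested. With both summed, the log2 fold change was 0.25 (adjusted p = 0.658).

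*Dpp4* encodes CD26, a peptidase of the T cell surface whose human form anchors adenosine deaminase there. It had the most counts of any member, 715 to 1291 per library. Its level was 196.6 and 193.6 CPM in WT and 167.7 and 151.3 CPM in cKO, and both cKO libraries lay below both WT libraries. The difference was -0.29 ± 0.10 (SE) on the log2 scale, or 0.82-fold with an interval from 0.70 to 0.96. The unadjusted p of 0.0174 came to an adjusted p of 0.155 in edgeR and did not pass. The log2 fold change was -0.37 (adjusted p = 0.0144) without cKO 1 and -0.22 (adjusted p = 0.125) without cKO 2, and the adjusted p was 0.630 without WT 1 and 0.619 without WT 2.

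**Figure D2:**
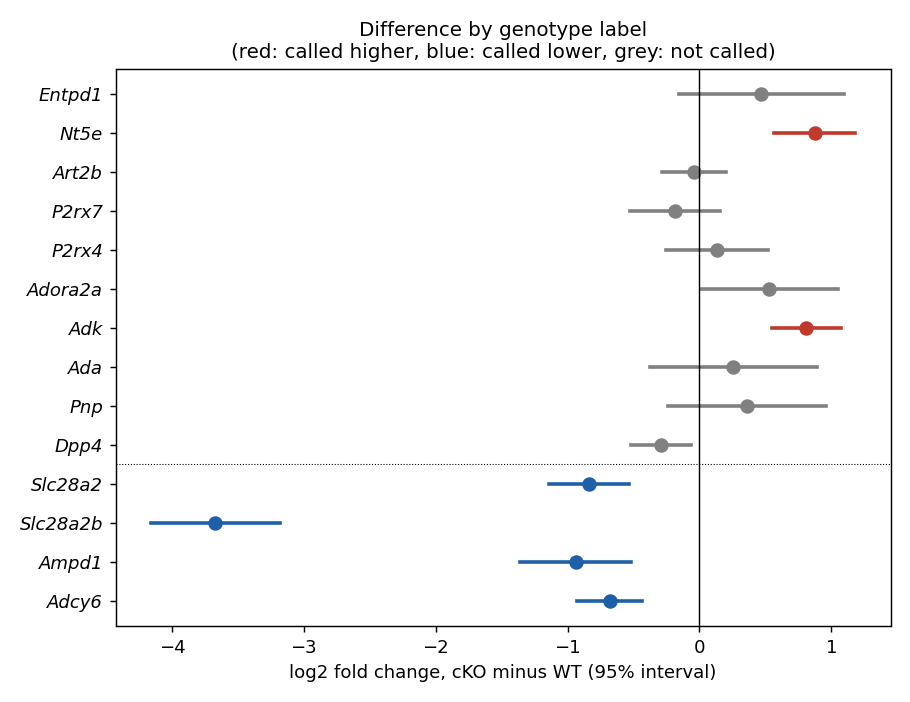
Log2 fold change of cKO against WT for each gene (dots) with 95% intervals (lines). Above the dotted line are the 10 members, of which *Nt5e* (0.87) and *Adk* (0.81) were called higher, and below it *Slc28a2*, *Slc28a2b*, *Ampd1* and *Adcy6*, which were called lower.

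Levels can be set beside each other only per length of transcript. As mean CPM per kilobase of exonic length in the WT libraries, *Art2b* stood at 37.3, *Dpp4* at 30.9, *P2rx7* at 16.9 and *Adora2a* at 9.37. Then came *Adk* at 6.18, *Nt5e* at 6.02, *Ada* at 5.23, *P2rx4* at 3.35, *Pnp* at 2.27 and *Entpd1* at 1.08. *Adk* and *Nt5e* were neighbours whose WT libraries overlapped on this scale, and *Nt5e* and *Ada* overlapped too, with *Ada* at 4.11 and 6.35. In the cKO libraries the means of *Nt5e* and *Adk* were 11.04 and 10.8, and the mean of *Adora2a* was 13.5. The cKO libraries of the 3 genes overlapped, since *Adora2a* had 16.98 in cKO 1 but 9.95 in cKO 2, where *Adk* had 10.2 and *Nt5e* 9.79.

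This order depends on the length used. All exons of *Adk* together span 8526 bases, but its main transcript has 1782. Divided by the main transcript, *Adk* had 29.6 CPM per kilobase in WT and came next after *Art2b* and *Dpp4*, and *P2rx7* followed at 20.5. In cKO, *Adk* had 51.9, *Nt5e* 23.8 and *Adora2a* 15.9 on that scale. In WT, *Art2b* and *Dpp4* came first and *Entpd1* came last by either length.

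Each of the members takes up a separate locus or, for the P2X pair, adjacent loci. In GENCODE M21 on GRCm38, *Nt5e* lies at chr9:88327197-88372092 (plus strand), *Adk* at chr14:21052574-21448569 (plus) and *Entpd1* at chr19:40612366-40741602 (plus). *P2rx7* lies at chr5:122643911-122691432 (plus) and *P2rx4* at chr5:122707544-122729738 (plus). *Adora2a* is at chr10:75316877-75334784 (plus) and *Dpp4* at chr2:62330073-62412231 (minus). *Ada* is at chr2:163726584-163750239 (minus), *Pnp* at chr14:50931082-50965237 (plus) and *Art2b* at chr7:101576970-101585600 (minus). *Nt5e*, *Adk*, *Entpd1*, *Adora2a* and *Ada* share no exonic bases with another annotated gene on either strand. Genes on the opposite strand overlap 3.67% of the exonic bases of *Dpp4* and 8.95% of those of *Pnp*. How reads there were counted depends on the strand setting, which is not stated.

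Whether cells of other types were present was read from marker lists. Treg markers moved with the genotype label. Their summed level was 511 and 433 CPM in WT and 878 and 1096 CPM in cKO, with 6 of 8 markers above both WT libraries and *Itgae* below. *Foxp3* had 141 and 120 CPM in WT and 404 and 545 CPM in cKO, and so made up much of the sum in cKO. *Foxp3* is known to be regulated by SATB1 itself, also in CD4+ T cells that are not Treg cells, so in these bulk libraries its level does not give a share of Treg cells. Other Treg markers also rose, *Ctla4* (adjusted p = 0.0390), *Tnfrsf18* (adjusted p = 0.0232) and *Nrp1* (adjusted p = 0.0203) in edgeR, while *Itgae* fell (log2 fold change -0.92, adjusted p = 0.0267). *Il2ra* (edgeR adjusted p = 0.0509) and *Ikzf4* (adjusted p = 0.0722) lay above both WT libraries but did not pass. *Ikzf2* overlapped between the genotypes (adjusted p = 0.291). The part of Treg cells in the differences of *Nt5e* and *Adk* was not tested.

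B cell markers summed to 14.01 and 15.17 CPM in WT and to 57.3 and 23.5 CPM in cKO, with 5 of 8 markers above both WT libraries. Myeloid markers summed to 37.5 and 47.3 CPM in WT and to 104 and 60.1 CPM in cKO, with 5 of 9 markers above and 2 below. Both sums were highest in cKO 1, the library in which *Nt5e*, *Adk*, *Adora2a*, *Entpd1*, *Ada*, *Pnp* and *P2rx4* were also highest. Both sums were above WT in cKO 2 as well. Without cKO 1 the log2 fold change of *Nt5e* was 0.70 and that of *Adk* 0.72. That fit has cKO 2 as its only cKO library, so it cannot separate these cells from the genotype label. The part of these cells in the members' values was not tested.

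CD8 T cell markers summed to 99.3 and 102 CPM in WT and to 49.0 and 46.8 CPM in cKO, with 3 of 4 below both WT libraries and *Cd8a* at 4.23 to 6.83 CPM overlapping. NK cell markers summed to 1.90 to 5.50 CPM, with *Ncr1* and *Klre1* at or under the floor in all libraries. T cell markers summed to 5900 to 6656 CPM, with all 8 above the floor. Erythroid and platelet markers varied within both genotypes, from 8.16 CPM in cKO 1 to 205 CPM in WT 2, and naive T cell markers were at 5087 to 6882 CPM with overlap. Activated or memory T cell markers were at 796 and 871 CPM in WT and 859 and 1116 CPM in cKO.

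**Figure D3:**
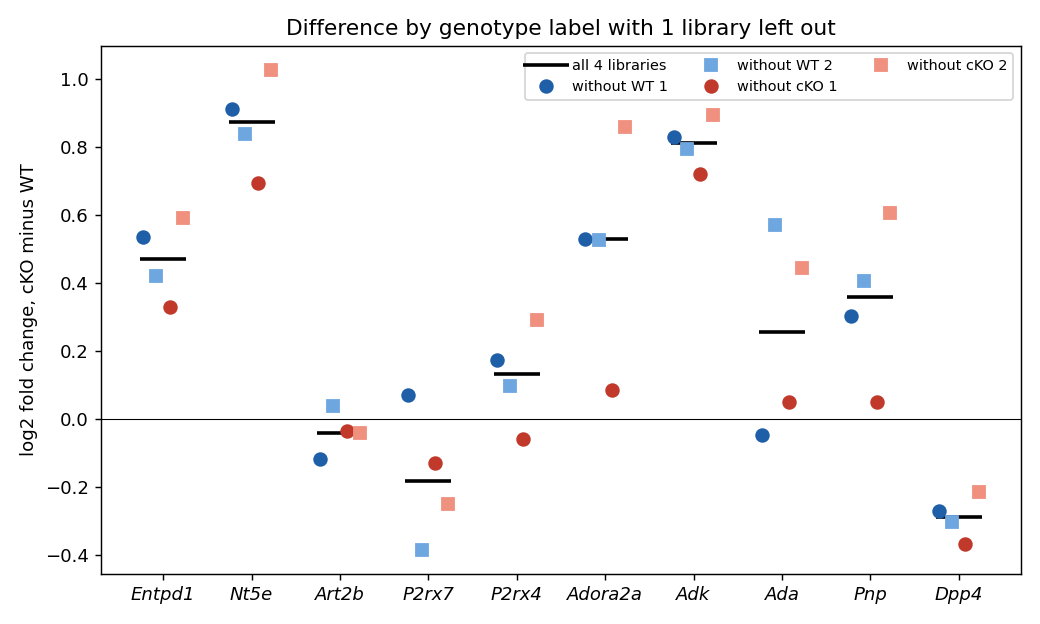
Log2 fold change of cKO against WT for each member with all 4 libraries (lines) and with 1 library left out (points). *Nt5e* and *Adk* stay between 0.70 and 1.03 and between 0.72 and 0.89, *Adora2a* moves from 0.08 to 0.86 with the cKO library left out, and *Art2b*, *P2rx7*, *P2rx4* and *Ada* cross 0.

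The calls of *Nt5e* and *Adk* needed WT 2. Without it the log2 fold changes were 0.84 and 0.79, but the adjusted p-values were 0.0972 and 0.0908, and only 180 genes of the whole table were called. A fit without a library leaves 1 library in its genotype, which is then assumed to vary like the other genotype.

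The wider pathway was described from lists of 83 further genes, of which 46 had enough counts to be tested and 24 were at or under the floor in every library. No gene of these lists was called higher and 3 were called lower, *Slc28a2*, *Ampd1* and *Adcy6*, beside 2.35% and 1.95% of all tested genes, and the median log2 fold change of the tested genes was 0.0017.

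**Figure D4:**
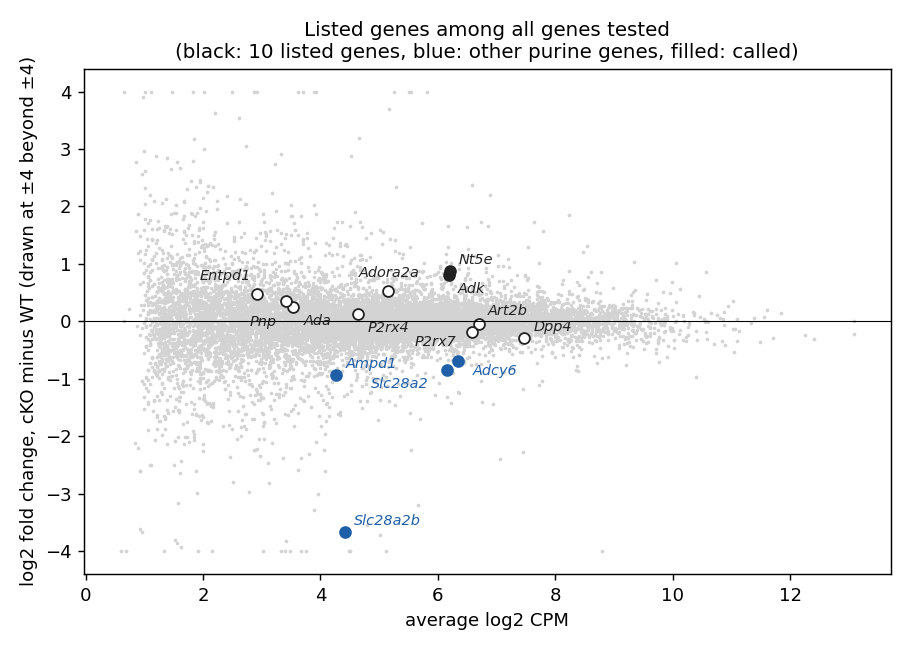
Log2 fold change of cKO against WT plotted against average log2 CPM for all 12403 tested genes (grey), with values beyond 4 in either direction drawn at 4. The 10 members are in black and 4 other purine genes in blue, and filled circles were called. *Nt5e* and *Adk* lie together at the upper edge of the grey cloud, and *Slc28a2b* lies far below it.

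Of the 19 other nucleotide and NAD ectoenzymes, 8 were tested and none was called. *Entpd5* encodes a nucleoside diphosphatase of the endoplasmic reticulum and was the highest of them in mean CPM. It had 126 and 124 CPM in WT and 117 and 92.3 CPM in cKO (edgeR adjusted p = 0.332). *Cd38*, which consumes NAD, had 6.24 and 6.47 CPM in WT and 11.95 and 12.06 CPM in cKO. Its groups were separate, but the log2 fold change of 0.92 ± 0.24 (SE) had an edgeR adjusted p of 0.0741. With no filter on low counts *Cd38* was called (adjusted p = 0.0154), and so it was with a replicate block (adjusted p = 0.0442).

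Of the 7 genes for the release of ATP, 4 were tested and none was called. *Panx1*, a channel that lets ATP out of T cells, had 86.8 and 83.0 CPM in WT and 88.8 and 75.3 CPM in cKO, with overlap (adjusted p = 0.871).

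Nucleoside transporters carry adenosine and inosine across the membrane. Of 7 listed, 4 were tested and 1, *Slc28a2*, was called lower. *Slc28a2* encodes a sodium-coupled transporter that concentrates purine nucleosides in the cell. It had 91.7 and 89.5 CPM in WT and 45.0 and 56.5 CPM in cKO, with both cKO libraries well below WT. It fell to 0.56-fold (95% interval 0.45 to 0.69), a log2 fold change of -0.84 ± 0.13 (SE; edgeR adjusted p = 0.0113). The equilibrative transporters *Slc29a1*, *Slc29a2* and *Slc29a3* did not pass the test, with log2 fold changes of -0.04, -0.34 and 0.21.

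*Slc28a2* has a close copy further along chromosome 2, *Slc28a2b*, which was named after its values were seen. *Slc28a2* lies at chr2:122426477-122461137 and *Slc28a2b* at chr2:122484941-122528040, both on the plus strand of GRCm38. Their coding sequences are 94.5% identical over 1980 bases, and 35.4% of the 50-base words of *Slc28a2* occur in *Slc28a2b*. The 60 coding bases (388 to 447) that differ most are shown as an example of where reads tell the copies apart. Differing bases are in capitals, and the positions are chr2:122447889-122447948 and chr2:122494336-122494395.
Slc28a2: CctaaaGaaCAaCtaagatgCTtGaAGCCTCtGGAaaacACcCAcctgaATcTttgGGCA
Slc28a2b: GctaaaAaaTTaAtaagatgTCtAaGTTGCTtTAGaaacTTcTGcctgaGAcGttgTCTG

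*Slc28a2b* had 36.4 and 40.8 CPM in WT and 2.85 and 3.17 CPM in cKO. This was 239 and 183 counts against 15 in each cKO library. The log2 fold change was -3.67 ± 0.21 (SE; 95% interval -4.16 to -3.18, edgeR adjusted p = 7.17e-05), the largest in size of any gene named here apart from *Xist* and *Ddx3y*. With the counts of both copies summed, the pair had 841 and 584 counts in WT and 252 and 282 in cKO and fell to 0.416-fold (log2 fold change -1.27 ± 0.13 SE, adjusted p = 0.00146). Both copies were called lower when counted apart, and so was their sum.

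Of the 21 other genes of purine nucleoside metabolism, 17 were tested and 1 was called, lower. *Ampd1* encodes a deaminase that turns AMP into IMP. Its level was 24.1 and 25.4 CPM in WT and 14.04 and 11.64 CPM in cKO, with separate groups. *Ampd1* had a log2 fold change of -0.94 ± 0.18 (SE; edgeR adjusted p = 0.0267), and the adjusted p in DESeq2 was 0.0614. *Ahcyl1*, the gene of the list with the highest mean CPM, was at 113 to 114 CPM in all 4 libraries. The other AMP deaminases, *Ampd2* and *Ampd3*, had log2 fold changes of 0.03 and 0.06 and did not pass.

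Downstream of the A2A receptor, 13 of 14 genes of cyclic AMP signalling were tested and 1 was called, lower. *Adcy6* encodes an adenylyl cyclase, an enzyme that makes cyclic AMP. It had 95.9 and 104 CPM in WT and 61.7 and 62.9 CPM in cKO, and the cKO libraries nearly coincided. The log2 fold change was -0.68 ± 0.11 (SE; edgeR adjusted p = 0.0117). An antisense gene, *Gm29331*, overlaps 8.92% of the exonic bases of *Adcy6* and had 96 and 72 counts in WT and 48 in each cKO library. In GENCODE M21 all exonic bases of *Gm29331* lie within those of *Adcy6*. Under that annotation, counting without regard to strand would leave *Gm29331* no counts, since reads fitting both genes are not counted. The annotation and strand setting of the counting are not given in the sources used here. Whether the counts of *Gm29331* are reads of *Adcy6* was not tested.

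*Adcy7*, the listed adenylyl cyclase with the highest mean CPM, had 292 and 354 CPM in WT and 355 and 344 CPM in cKO (log2 fold change 0.12, edgeR adjusted p = 0.642). *Gnas*, which encodes the G protein subunit that couples the receptor to these enzymes, was at 586 and 579 CPM in WT and 585 and 558 CPM in cKO (adjusted p = 0.916). The transcripts of the receptor's signalling chain other than *Adcy6* did not pass the test. The calls of *Slc28a2*, *Ampd1* and *Adcy6* were lost without WT 2, where their log2 fold changes were -0.86, -0.91 and -0.63.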

How the data were processed

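Total RNA from sorted splenic CD4+ T cells was made into libraries with the NEBNext Ultra kit and read at 50 bases. Per the submitters' processing notes, the authors aligned reads to mm10 with HISAT2 2.1.0 and counted them per gene with HTSeq 0.11.1, while the study's methods name another sub-version of HTSeq. They deposited raw counts of reads for 55367 gene symbols per library, followed by 5 summary lines left out here. The annotation and strand setting are not given in the sources used here, and reads fitting more than 1 gene or place are not counted. Of reads aligned to a single place, 59.4% to 64.5% were assigned to no annotated feature. If counting was by strand, these include reads on the opposite strand of a gene.

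Counts were tested in R 4.3.3 with the edgeR 4.0.16 quasi-likelihood test (filterByExpr, TMM factors of 0.981 to 1.02, two-sided), and p-values were adjusted by the Benjamini-Hochberg method over the 12403 genes, with calls made below 0.05. CPM are counts per 1e+06 on TMM-scaled library sizes, and intervals are at a level of 0.95 from the moderated degrees of freedom. The SE is the absolute log2 fold change divided by the square root of F. Poisson intervals and the floor of 3 counts cover counting error only. The labels number 2 replicates per genotype, which the study calls biological replicates, and p-values measure the spread between these samples. The script was tested on simulated counts.

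Positions, lengths, overlaps and copies came from GENCODE M21 and promoter windows from RefSeq GRCm38.p6. The members and lists were chosen with earlier results of these data known. All members were named, with the called genes and the gene of highest mean CPM in each wider list. *Satb1* and the near copies and neighbours of members were named too. *Cd38*, *Slc28a2b*, *Gm29331*, *Ampd2*, *Ampd3*, *Adcy7*, *Crem*, *Xdh*, the other adenosine receptors, the *Slc29a* genes and the sex-linked genes were added after their values were seen. Alternatives used DESeq2 1.42.0, limma 3.58.1 voom, RLE factors, total counts, other low-count filters, a replicate block, each library left out and copies summed. Figures used matplotlib 3.10.9 under Python 3.11.15.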

Additional observations from a re-analysis of the deposited data

How the results depend on the processing

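Of 146 repeats of single genes under another setting, 133 kept their direction and their side of the threshold. On all 4 libraries, under DESeq2, limma voom, RLE factors, total counts, both other filters and the replicate block, *Nt5e* and *Adk* stayed called, with adjusted p-values up to 0.013 and 0.00909. With 1 library left out, the log2 fold change of *Art2b* ran from -0.12 to 0.038, that of *P2rx7* from -0.39 to 0.069, that of *P2rx4* from -0.061 to 0.29 and that of *Ada* from -0.048 to 0.57, and none of these was called. Members called higher then numbered 0 (without WT 2) to 3 (without cKO 2, with *Adora2a*), and members called lower 0 to 1 (*Dpp4*, without cKO 1). Wider pathway genes called higher numbered 0 to 3 (*Cd38*, *Crem* and *Xdh*, without cKO 2), and those called lower 0 (without WT 2) to 4 (with *Entpd5*, without cKO 1). With no filter on low counts *Adora2a* was called (0.52, adjusted p = 0.0373), as was 1 wider gene, *Cd38*, higher. *Ampd1* was not called in DESeq2 (log2 fold change -0.94, adjusted p = 0.0614). The causes of these changes were not tested.

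Replicate numbers name samples and do not pair them, and their deviations from the genotype means correlated at 0.064 over genes. With a replicate block, 1165 genes were called in place of 533, the log2 fold changes of *Nt5e* and *Adk* were 0.87 and 0.81, and 1 wider gene was called higher (*Cd38*). No filter on low counts gave 1367 calls, and leaving out 1 library 180 (without WT 2), 481 (without WT 1), 1469 (without cKO 1) and 1783 (without cKO 2). The copies were summed after seeing the data. At 26 to 73 counts per library, the depth leaves wide intervals for *Entpd1*, *Ada* and *Pnp*.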
